A study of Mus musculus with 8 samples.

Results

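The members described here were 7 genes of the endothelial response to blood flow, namely *Klf2*, *Klf4*, *Piezo1*, *Heg1*, *Krit1*, *Ccm2* and *Pdcd10*. They were chosen by name, with earlier results of these data known, and all 7 were found among the 33641 gene symbols measured in each library. RNA-seq was carried out on endothelial cells from lung tumors of mice, sorted as CD45-CD31+ cells and referred to as tumor endothelial cells (TECs). The tumors arose in the lung after Lewis lung carcinoma (LLC) cells, a mouse lung cancer line, had been injected into the left lobe, and they were dissected on day 21. Libraries from 4 control samples (C1 to C4) were compared with libraries from 4 endFoxf1+/- samples (H1 to H4). The endFoxf1+/- mice carried a tamoxifen-inducible Cre under the *Pdgfb* promoter together with 1 floxed *Foxf1* allele (Pdgfb-CreER tg/+; Foxf1 fl/+). Tamoxifen, given to young adults, thus deleted 1 *Foxf1* allele in endothelial cells of the host and left the other allele in place. The study describes its control mice as treated with tamoxifen too. The sample labels call the other group only control, and the study describes its controls in its results as littermates with a single transgene and in its methods as wild-type C57Bl/6 mice. All values are TPM (transcript abundances on a common total for each library), which are scaled for transcript length and can be compared between genes. TPM keep no read depth, so the depth behind each value is unknown.

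Endothelial cells sense the drag of flowing blood through membrane proteins that include PIEZO1, a mechanically gated cation channel. The signal passes through the kinases MEKK3, MEK5 and ERK5 to MEF2 transcription factors, which switch on *Klf2* and *Klf4*, genes for zinc-finger transcription factors that keep endothelium quiescent, anticoagulant and resistant to inflammation. KRIT1 (CCM1), CCM2 and PDCD10 (CCM3) form an adaptor complex that HEG1, a transmembrane protein, anchors at cell junctions. This complex restrains MEKK3, and its loss raises *Klf2* and *Klf4* and causes cerebral cavernous malformations (CCM).

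In the mouse genome (GRCm38, GENCODE vM21), *Klf2* lies at chr8:72319033-72321656 on the plus strand and *Klf4* at chr4:55527143-55532466 on the minus strand. *Piezo1* lies at chr8:122481698-122551329 on the minus strand and *Heg1* at chr16:33684370-33771576 on the plus strand. *Krit1* (chr5:3803184-3845564, plus), *Ccm2* (chr11:6546887-6596744, plus) and *Pdcd10* (chr3:75516490-75556856, minus) complete the set. The library kit does not mark the strand, so reads from overlapping genes cannot be told apart. The gene model *Gm20388* on the opposite strand spans all 69632 bp of *Piezo1*, and *Ctu2* overlaps it over 2441 bp, whereas *Heg1*, *Krit1* and *Ccm2* overlap other genes over 1147, 392 and 481 bp. No overlap was annotated for *Klf2*, *Klf4* or *Pdcd10*.

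The promoters of the *Klf2* and *Klf4* genes are shown because both genes are transcriptional end points of the pathway. Sequences are those of RefSeq (GRCm38.p6), 5′ to 3′ on the strand of the gene, and end before the first annotated transcript start. Capitals mark a match to the MEF2 consensus in *Klf2*, at chr8:72318812-72319032 (plus), and a match to the forkhead core TAAACA, read on the other strand, in *Klf4*, at chr4:55532476-55532725 (minus).
Klf2: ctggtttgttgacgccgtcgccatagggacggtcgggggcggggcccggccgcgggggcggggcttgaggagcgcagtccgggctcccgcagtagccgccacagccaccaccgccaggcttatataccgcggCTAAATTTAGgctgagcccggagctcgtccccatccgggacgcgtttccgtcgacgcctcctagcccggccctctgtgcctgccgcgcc
Klf4: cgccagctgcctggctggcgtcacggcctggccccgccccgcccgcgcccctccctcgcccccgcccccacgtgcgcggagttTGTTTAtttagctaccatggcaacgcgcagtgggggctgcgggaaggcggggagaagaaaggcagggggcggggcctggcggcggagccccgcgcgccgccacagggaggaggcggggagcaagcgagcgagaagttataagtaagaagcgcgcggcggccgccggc
The *Klf2* match began at position -118 and the *Klf4* match at position -167, counted from the RefSeq start site as 0. Promoter windows of 300 bases around each RefSeq start were searched on both strands. The MEF2 consensus was present in 3.19% of 32851 windows and, among the members, only in that of *Klf2*. TAAACA was present in 13.4% of windows and, among the members, only in that of *Klf4*. CACCC, the core sequence bound by KLF proteins, was present in 57.5% of windows, among them windows of *Ccm2*, *Heg1*, *Klf2* and *Piezo1*. A match describes the letters in a window and does not show binding.

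The endothelial identity of the libraries was checked first. All 20 endothelial markers (among them *Pecam1*, *Cdh5* and *Tek*) were at 1 TPM or more in every library, but their level differed. Their geometric mean was between 86.5% and 109% of the control mean in C1 to C4, 107% in H1 and 108% in H2, but 55.0% in H4 and 5.44% in H3. These 2 libraries also correlated least with the others (median r across genes 0.795 for H3 and 0.892 for H4, against 0.958 to 0.968), and the members' results are therefore also given without H3. Myeloid markers summed to between 1496 and 5202 TPM in control, 2698 TPM in H1, 2000 TPM in H2, 9620 TPM in H3 and 4780 TPM in H4. *Lyz2* alone made up 71.4% to 95.3% of these sums. The other 9 myeloid markers summed to between 96.3 and 261 TPM in control and to 289.5, 418, 2750.4 and 303 TPM in H1 to H4, so that every endFoxf1+/- library lay above every control library. Fibroblast and pericyte markers summed to between 65.2 and 108 TPM in control and to 128, 86.4, 790 and 202 TPM in H1 to H4, with only H2 inside the control range. Epithelial markers ranged from 6504 to 30764 TPM in control and were at 10296, 2436, 1562 and 23223 TPM in H1 to H4, with H2 and H3 below the control range. The mean log2(TPM + 1) was higher in endFoxf1+/- for 10 of 10 myeloid and 6 of 10 fibroblast and pericyte markers, and lower for 9 of 10 epithelial markers. On the same log2 scale, erythroid and platelet markers had a lower mean for 9 of 9 (699, 698, 428 and 1006 TPM in sum in H1 to H4, against 1044 to 2099 TPM in control), and proliferation genes a higher mean for 8 of 8 (309, 282, 496 and 207 TPM in sum, against 204 to 231 TPM). In H1 and H2, both sums lay outside the control range. A single gene model, *Gm20594*, took 21.8% of all TPM in H4 and between 5.11% and 11.3% in the other libraries. The part of these differences in the members' values was not tested. *Foxf1*, the targeted gene, was at 213, 285, 296 and 331 TPM in C1 to C4 and at 177, 203, 14.04 and 105 TPM in H1 to H4, below every control library in every endFoxf1+/- library. *Gm20388*, which spans all 3759 bp of *Foxf1* on the same strand, was at 10.6 to 15.7 TPM in control and at 2.67 to 17.4 TPM in endFoxf1+/-, and reads of the 2 cannot be told apart. In bulk RNA, fewer endothelial cells and less RNA per endothelial cell cannot be told apart.

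On the TPM scale, *Klf4* mRNA was lower in every endFoxf1+/- library than in every control library. It was at 365, 381, 442 and 484 TPM in C1 to C4 and at 313, 254, 47.3 and 218 TPM in H1 to H4. The highest endFoxf1+/- library thus lay under the lowest control library, and the groups did not overlap. Means were 418 ± 55.4 TPM in control and 208 ± 114 TPM in endFoxf1+/- (SD, n = 4 each), or 49.8% of control. The log2 fold change on the log2(TPM + 1) scale was -1.29 (SE 0.53, 95% interval -2.48 to -0.09), with an unadjusted p of 0.0374 and a Benjamini-Hochberg adjusted p of 0.790 from limma. An exact permutation test (two-sided) returned p = 0.0286, the smallest that 4 against 4 libraries allow. *Klf4* was the only member with groups that did not overlap, and 2.31% of the 14964 tested genes were lower without overlap in the same comparison.

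On the log2(TPM + 1) scale, library H3 set much of the size of the *Klf4* difference but not its direction. Without H3, the endFoxf1+/- mean was 262 ± 48.1 TPM (SD, n = 3) and the log2 fold change was -0.68 (SE 0.18, 95% interval -1.09 to -0.27), with an adjusted p of 0.508 from limma. Without H3 and H4, it was -0.56 (adjusted p = 0.275, limma). With the endothelial level of each library as a covariate, the estimate was -0.57 (SE 0.17, adjusted p = 0.631, limma). That level varied mainly through H3 and H4, both endFoxf1+/-, so this fit is no separate check from the fit without them. In H1 and H2, whose endothelial markers were at control level, *Klf4* was at 75.0% and 60.7% of the control mean, below each of the 20 endothelial markers in the same library (lowest *Cldn5*, at 79.1% and 69.6%). In H3 and H4, whose endothelial markers were lower, *Klf4* was at 11.3% and 52.2%, above 20 and 9 of the 20 markers. No adjusted p for *Klf4* passed 0.05 in any of 18 alternative settings, the smallest being 0.147.

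*Klf2* mRNA showed a less even difference. It was at 259.7, 420, 400 and 392 TPM in C1 to C4 and at 361, 250.0, 49.9 and 127 TPM in H1 to H4. H1 lay within the control range and the other 3 endFoxf1+/- libraries lay below it, H2 by less than 10 TPM under C1, the lowest control. Means were 368 ± 72.9 TPM in control and 197 ± 137 TPM in endFoxf1+/- (SD, n = 4 each). The log2 fold change was -1.22 (SE 0.54, 95% interval -2.44 to 0.01), with an adjusted p of 0.790 from limma and an exact two-sided permutation p of 0.0571. It was -0.68 without H3 and -0.27 without H3 and H4, so most of the *Klf2* difference lay in these 2 libraries. In H2, *Klf2* was at 68.0% of the control mean and below all 20 endothelial markers, whereas in H1 it was at 98.2%, above 7 of them.

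The ratio of *Klf4* to *Klf2* mRNA did not differ beyond its spread. It was 1.16 ± 0.210 in control and 1.14 ± 0.392 in endFoxf1+/- (SD, n = 4 each, exact two-sided permutation p = 0.829). Immediate early and heat shock genes, which like *Klf2* and *Klf4* are known to respond to tissue dissociation, were lower in sum than every control library in H1, H2 and H3 and higher in H4. The 15 genes of this list summed to between 1846 and 2484 TPM in control, and to 1582, 1486, 1558 and 2710 TPM in H1 to H4. Of the 15, 12 had a lower mean in endFoxf1+/-, as did 68% of all tested genes. When only H1 and H2 were compared with control, all 15 had a lower mean and 8 were lower without overlap, against 4233 and 611 of all 14578 tested genes. Their part in the *Klf4* and *Klf2* values was not tested.

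**Figure D1:**
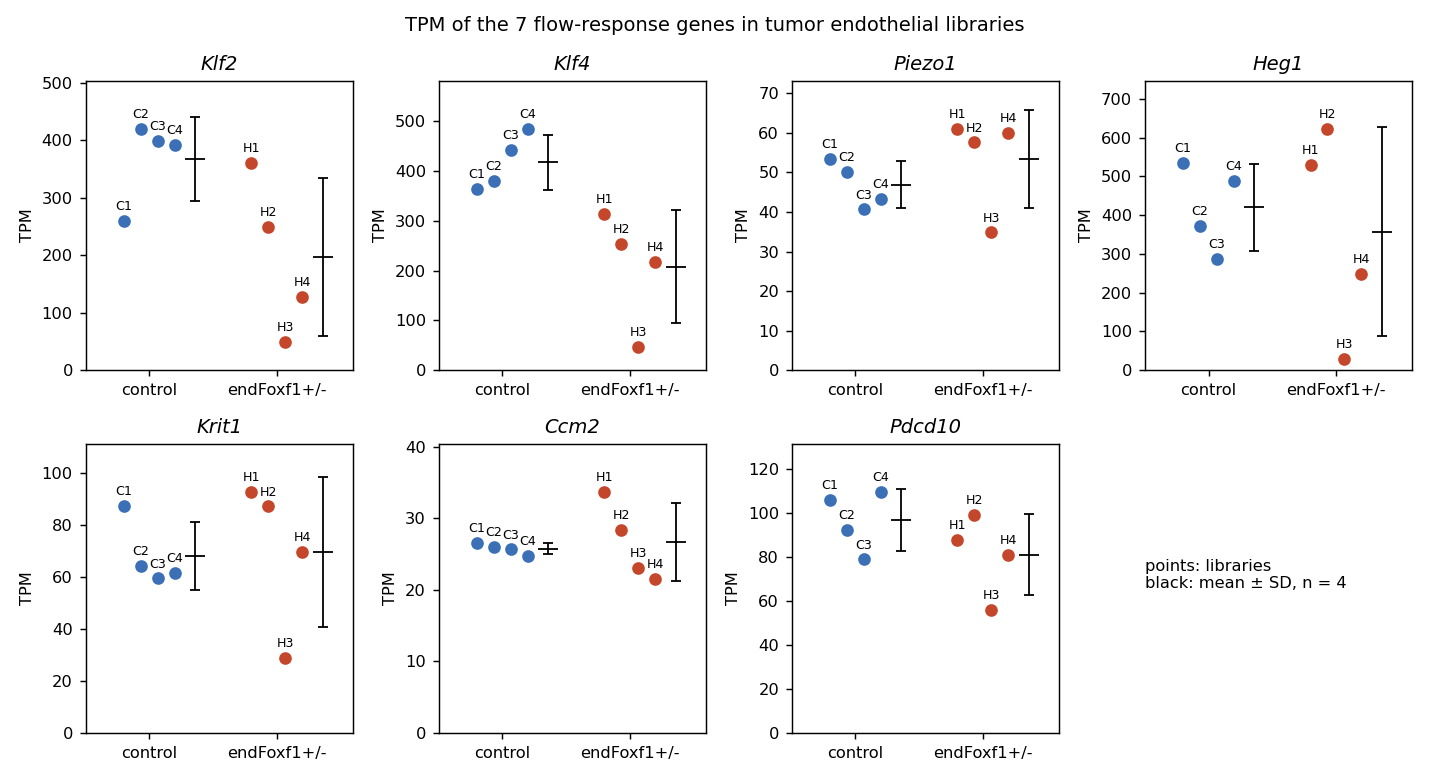
TPM (vertical axes, linear and from 0) of each member in the 4 control libraries (blue) and 4 endFoxf1+/- libraries (red), with the mean ± SD of each group in black. *Klf4* was the only member with every endFoxf1+/- library below every control library, and H3 held the lowest value of each member except *Ccm2*, which was lowest in H4.

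*Piezo1*, the mechanosensor at the top of the pathway, did not have a lower mean in endFoxf1+/- TECs. It was at 53.4, 50.2, 40.6 and 43.4 TPM in C1 to C4 and at 60.9, 57.6, 34.8 and 60.1 TPM in H1 to H4. In all, 3 of the 4 endFoxf1+/- libraries lay above every control library, and H3 lay below every control library. Means were 46.9 ± 5.90 and 53.4 ± 12.4 TPM (SD, n = 4 each), with a log2 fold change of 0.16 (SE 0.24, 95% interval -0.39 to 0.70; adjusted p = 0.859, limma). Without H3, the endFoxf1+/- mean was 59.5 ± 1.72 TPM (SD, n = 3) and the log2 fold change was 0.35 (unadjusted p = 0.0432, adjusted p = 0.691, limma), and the exact permutation p was 0.0571, the smallest that 4 against 3 libraries allow. Without H3, *Klf4* was the only member lower without overlap (2.62% of all tested genes) and *Piezo1* the only member higher without overlap (6.46%). Without H3 and H4, the *Piezo1* log2 fold change was 0.34 (adjusted p = 0.402, limma). The 95% interval with all libraries left room for a change in either direction, so a lower level was not excluded. Reads of *Gm20388* could contribute to these values.

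*Heg1*, the junctional receptor of the CCM complex, stayed within the range of the endothelial markers. It was at 535, 373, 287 and 487 TPM in C1 to C4 and at 529, 622, 29.4 and 249 TPM in H1 to H4. H2 held the highest value of all 8 libraries and H3 the lowest, so that the groups overlapped widely. As a percentage of the control mean, *Heg1* was at 126, 148, 6.98 and 59.2 in H1 to H4, inside the range of the 20 endothelial markers in each of these libraries, and it was the only member inside that range (3.69% to 8.20%) in H3. Within the range, it was above 17, 19, 16 and 9 of the 20 markers in H1 to H4. Its log2 fold change was -0.87 with a wide error (SE 0.84, 95% interval -2.75 to 1.01; adjusted p = 0.801, limma), and it was 0.09 without H3 and 0.49 without H3 and H4.

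**Figure D2:**
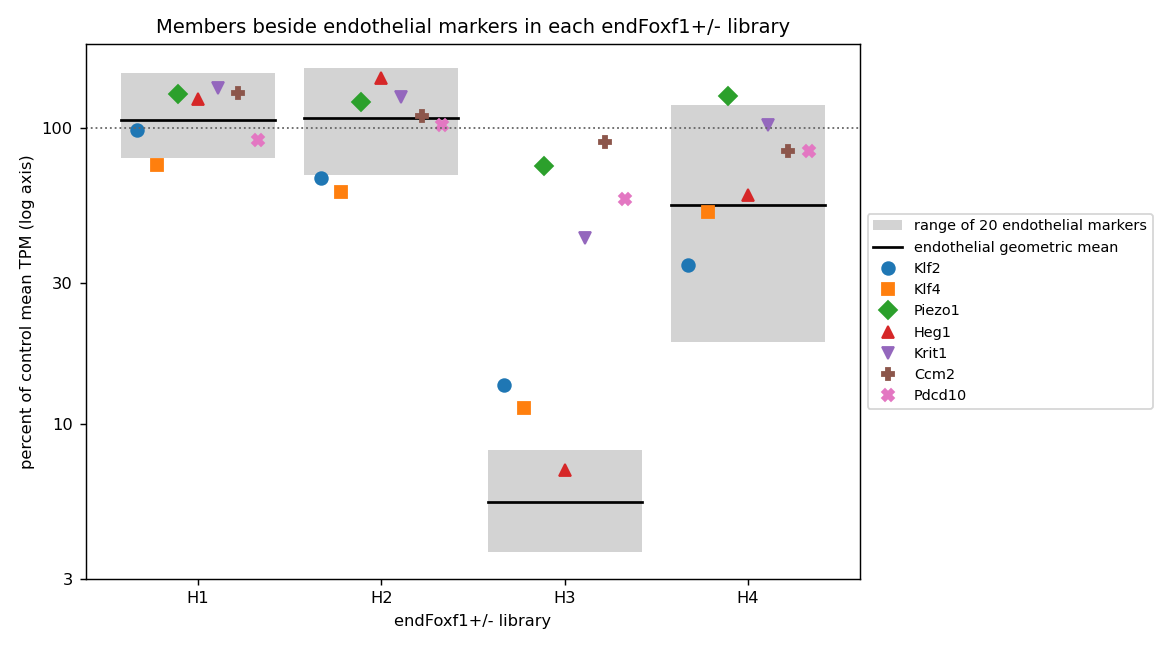
Level of each member as a percentage of its control mean TPM (vertical axis, log scale) in each endFoxf1+/- library, beside the range (grey) and geometric mean (black line) of 20 endothelial markers. *Klf4* lay under the grey range in H1 and H2, *Heg1* lay inside it in all 4 libraries, and the other 6 members lay above it in H3.

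The 3 genes of the CCM complex itself had overlapping groups. *Krit1* was at 87.5, 64.2, 59.4 and 61.6 TPM in C1 to C4 and at 92.7, 87.1, 28.9 and 69.6 TPM in H1 to H4, with H1 above and H3 below all control libraries. Its means were 68.2 ± 13.01 and 69.6 ± 28.8 TPM (SD, n = 4 each), and its log2 fold change was -0.08 (95% interval -0.90 to 0.74; adjusted p = 0.956, limma). *Krit1* was at 136% and 128% of the control mean in H1 and H2, and the sign of its estimate turned to 0.29 without H3 and to 0.41 without H3 and H4 (unadjusted p = 0.0431, adjusted p = 0.393, limma).

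*Ccm2*, the scaffold of the complex, was the least variable member in control TECs. It was at 26.6, 26.0, 25.7 and 24.8 TPM in C1 to C4 and at 33.7, 28.4, 23.1 and 21.6 TPM in H1 to H4. The endFoxf1+/- libraries lay on both sides of the narrow control range, 2 above and 2 below. The log2 fold change was 0.03 (95% interval -0.45 to 0.51; adjusted p = 0.975, limma), 0.09 without H3 and 0.26 without H3 and H4.

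*Pdcd10*, which links the complex to GCKIII kinases, was at 106, 92.5, 78.9 and 109.6 TPM in C1 to C4 and at 87.9, 99.3, 55.9 and 81.0 TPM in H1 to H4. Only H3 lay below the control range. Its log2 fold change was -0.27 (95% interval -0.81 to 0.27; adjusted p = 0.797, limma), -0.11 without H3 and -0.04 without H3 and H4. The intervals of *Krit1*, *Ccm2* and *Pdcd10* leave room for changes in either direction, so equal expression was not shown.

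**Figure D3:**
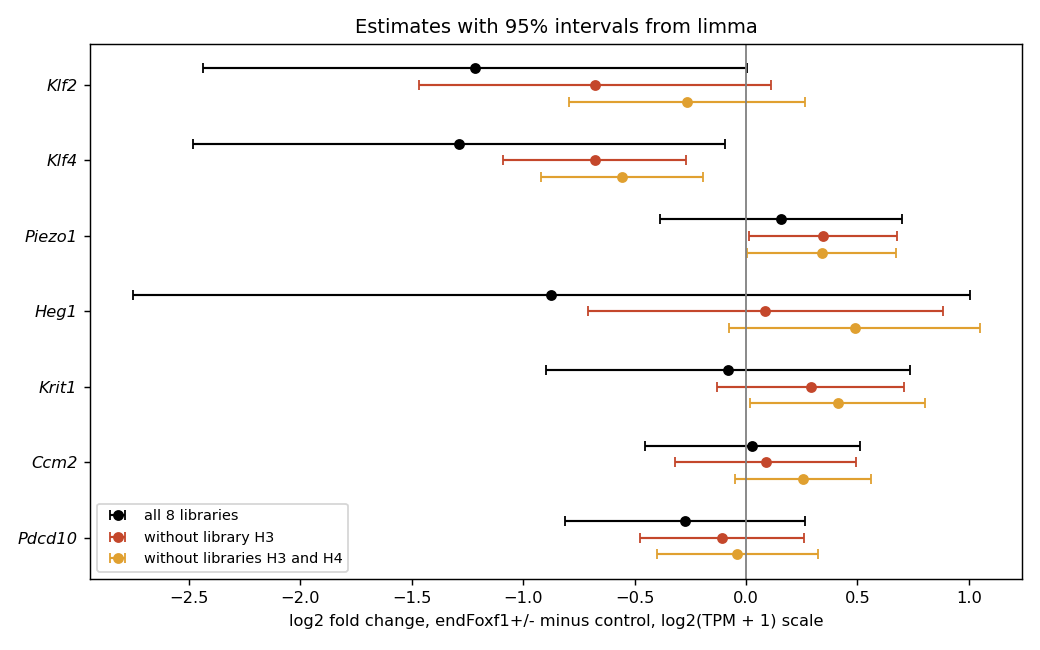
Log2 fold change of each member (endFoxf1+/- minus control, log2(TPM + 1) scale, horizontal axis) with 95% intervals from limma, for all 8 libraries (black), without H3 (red) and without H3 and H4 (yellow). The intervals of *Klf4* lay below 0 in all 3 fits before adjustment for multiple tests, whereas the *Heg1* and *Krit1* estimates changed sign.

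Across the 7 members, 5 had a lower mean log2 value in endFoxf1+/- TECs, and the median of the 7 log2 fold changes was -0.27. A lower mean was also seen for 68% of all tested genes, whose median was -0.17, so this count does not set the members apart. Without H3, 3 of 7 members and 48.4% of all genes had a lower mean. No member passed an adjusted p of 0.05, nor did any other gene (0%, limma, with all libraries and without H3), whereas 1 of 7 members and 5.59% of all genes (836 genes) had an unadjusted p under 0.05. Without H3, the unadjusted p was under 0.05 for 2 of 7 members, *Klf4* and *Piezo1*, and for 7.16% of all genes.

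In control TECs, *Heg1* (421 ± 112 TPM), *Klf4* (418 ± 55.4 TPM) and *Klf2* (368 ± 72.9 TPM; SD, n = 4) were the highest members, at the 98.0th, 98.0th and 97.8th percentile of all tested genes. Their values overlapped, so no order among them could be given. *Pdcd10* (96.8 ± 14 TPM) and *Krit1* (68.2 ± 13.01 TPM) followed and overlapped each other, although *Pdcd10* was higher in each of the 4 control libraries. *Piezo1* (46.9 ± 5.90 TPM) and *Ccm2* (25.8 ± 0.748 TPM) were lower still and did not overlap with their neighbors. The adaptor *Ccm2* was thus the least abundant mRNA of the set and stood at the 64.6th percentile.

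Because the endothelial level differed between libraries, each member was also expressed relative to the 20 endothelial markers, as the log2(TPM + 1) value minus the mean of the markers in the same library. On this scale, 97.3% of all tested genes were higher in endFoxf1+/-, with a median difference of 1.02, and members are read against that shift. *Klf2* and *Klf4* differed by -0.03 (SE 0.69) and -0.10 (SE 0.67), with adjusted p of 0.973 and 0.904 from limma. With all libraries, none of the 7 members had an adjusted p (0.00668% of all genes) or an unadjusted p (2.26%) under 0.05 on this scale. Without H3, *Krit1* alone had an unadjusted p under 0.05 (0.0447, limma), beside 206 lower and 828 higher of 14794 genes. Without H3 and H4, *Klf4* alone did (0.0057, limma), beside 526 lower and 680 higher of 14578 genes. The ratio of *Klf4* TPM to the geometric mean of the markers was between 0.664 and 0.976 in control, and 0.561, 0.447, 1.66 and 0.757 in H1 to H4. H1 and H2 were thus below the control range, H4 within it and H3 above it. The ratio of *Klf2* was between 0.473 and 0.881 in control, and 0.646, 0.441, 1.75 and 0.440 in H1 to H4. Without H3, the relative differences were -0.47 for both genes (adjusted p = 0.628 for each, limma), beside a median of 0.22 over all genes. Without H3 and H4, they were -0.37 for *Klf2* (adjusted p = 0.737, limma) and -0.66 for *Klf4* (adjusted p = 0.361, limma), beside a median of 0.03. *Klf2* is also expressed by lymphocytes and *Klf4* by monocytes, cells that a CD45-negative sort should remove. Lymphocyte markers other than *Ptprc*, which all leukocytes express, summed to 21.4, 24.2, 49.8 and 12.4 TPM in H1 to H4, against 17.2 to 19.9 TPM in control. With *Ptprc*, 6 of 8 tested markers had a higher mean in endFoxf1+/-, and the sum was 141 TPM in H3 and 20.1 to 29.0 TPM in control. The part of these cells in the H3 values was not tested.

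The relative values of *Piezo1*, *Krit1*, *Ccm2* and *Pdcd10* were highest in H3. *Piezo1* was between 0.0757 and 0.0973 of the endothelial level in control and at 0.109, 0.102, 1.22 and 0.208 in H1 to H4, so that all 4 endFoxf1+/- libraries lay above all control libraries. Its relative log2 difference was 1.34 (SE 0.79; adjusted p = 0.491, limma; exact two-sided permutation p = 0.0286), but 0.56 without H3 and 0.23 without H3 and H4, and 8.67% of all tested genes were higher without overlap on this scale. *Krit1*, *Ccm2* and *Pdcd10* differed by 1.11, 1.22 and 0.91, close to the median of all genes (adjusted p = 0.491 for each, limma), and by 0.50, 0.30 and 0.11 without H3. With all libraries, *Heg1* moved least with the shift among the members outside the *Klf* pair, but without H3 *Pdcd10* moved less. The *Heg1* ratio was between 0.634 and 0.975 in control and between 0.864 and 1.10 in endFoxf1+/-. Its relative difference was 0.31 (adjusted p = 0.690, limma) and 0.30 without H3. Without H3 and H4 it was 0.38, the largest outside the *Klf* pair.

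**Figure D4:**
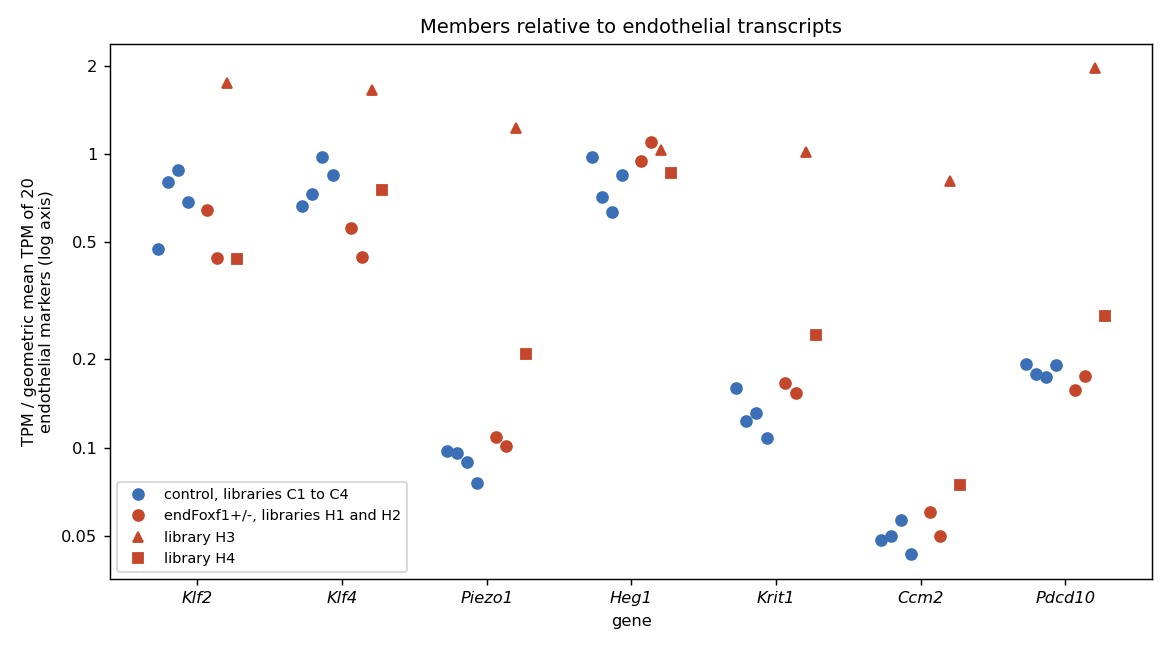
TPM of each member divided by the geometric mean TPM of 20 endothelial markers in the same library (vertical axis, log scale), for control (blue) and endFoxf1+/- (red) libraries, with H3 as a triangle and H4 as a square. In H3 every member except *Heg1* lay above all other libraries, and in H1 and H2 *Klf4* lay below all control libraries.

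The wider pathway was read from lists of genes grouped by role, none of which held a gene past an adjusted p of 0.05. Their counts are read beside the share of all tested genes with a lower mean, 68% with all libraries and 48.4% without H3, and with groups lower without overlap, 2.31%. Without H3 and H4, 4233 of 14578 genes had a lower mean. Means in these counts are of log2(TPM + 1). Among 7 partners of the CCM complex, 6 had a lower mean (median log2 fold change -0.34), 3 did without H3 and 1 without H3 and H4. *Ccm2l*, an endothelial paralog of *Ccm2*, was at 161, 131, 119 and 123 TPM in C1 to C4 and at 128, 157, 4.78 and 51.3 TPM in H1 to H4, and overlapped between groups. *Rasip1*, an effector of RAP1, was at 11.1 TPM in H3 and between 196 and 215 TPM in the other 3 endFoxf1+/- libraries. The small GTPase genes *Rap1a* and *Rap1b* had means of 347 and 207 TPM in control and of 261 and 175 TPM in endFoxf1+/-. Both overlapped between groups, and their log2 fold changes of -0.52 and -0.34 were -0.17 and -0.01 without H3. In the MEKK3 to MEF2 cascade, 5 of 7 genes had a lower mean (median -0.34), 3 did without H3 and 1 without H3 and H4. *Map3k3*, which encodes MEKK3, had means of 59.0 and 47.3 TPM, and *Mapk7*, which encodes ERK5, had means of 30.8 and 23.4 TPM in control and endFoxf1+/-. *Map2k5* (MEK5) had means of 20.5 and 16.6 TPM and *Mef2c* of 63.9 and 53.8 TPM, and all 4 genes overlapped between groups. Without H3, the log2 fold change of *Map3k3* went from -0.50 to -0.03, that of *Map2k5* went from -0.34 to -0.15, and that of *Mef2c* turned from -0.59 to 0.06, with *Mef2c* in H1 and H2 (75.4 and 83.5 TPM) above every control library. *Mapk7* moved the other way, from -0.40 to -0.50, with H3 (28.2 TPM) inside the control range and H4 (14.4 TPM) the lowest library.

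Of 10 other flow sensors, 8 had a lower mean (median -0.41), 3 did without H3 and 2 without H3 and H4. *P2rx4*, an ATP-gated channel, was at 93.5, 95.7, 82.8 and 89.9 TPM in C1 to C4 and at 76.4, 92.6, 36.5 and 50.3 TPM in H1 to H4, with only H2 inside the control range. *Piezo2*, the paralog of *Piezo1*, had means of 81.9 and 61.5 TPM, but was at 89.6, 86.6 and 65.2 TPM in H1, H2 and H4 and at 4.62 TPM in H3. *Gna11* and *Gnaq*, which encode G protein alpha subunits, were at 11.2 and 21.3 TPM in H3 and at 74.4 to 84.1 and 98.7 to 108 TPM in control. In H1 and H2, *Gna11* was inside the control range (75.5 and 75.8 TPM) and *Gnaq* above it (114 and 149 TPM), and in H4 both were below it (46.9 and 69.0 TPM). Without H3, the *Gnaq* log2 fold change went from -0.54 to 0.02.

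Genes that KLF2 and KLF4 are known to induce did not follow *Klf4* in every library. Of 14 tested, 11 had a lower mean (median -0.68), 7 did without H3, and 1 did without H3 and H4. *Thbd*, which encodes the anticoagulant receptor thrombomodulin, was at 723, 565, 619 and 818 TPM in C1 to C4 and at 642, 797, 44.0 and 269 TPM in H1 to H4. H1 and H2, in which *Klf4* was below control, were thus inside the control range for *Thbd*. *Adamts4*, a secreted protease and the gene with the smallest unadjusted p of this list, was higher in mean, at 1.38 to 3.91 TPM in control and at 7.59, 4.82, 2.55 and 6.81 TPM in H1 to H4 (log2 fold change 0.70, and 0.96 without H3). *Tmem100*, an endothelial membrane protein gene, had means of 697 and 401 TPM, with a log2 fold change of -1.62 that was -0.68 without H3. *Nos3*, the endothelial nitric oxide synthase, was at 20.8, 19.6, 0.940 and 7.76 TPM in H1 to H4 and at 10.4 to 17.7 TPM in control, and its log2 fold change turned from -0.67 to 0.09 without H3. *Hmox1*, the stress-induced heme oxygenase gene, was at 48.0, 49.4, 209 and 37.0 TPM in H1 to H4 against 24.1 to 44.4 TPM in control. Only H4 lay inside the control range, and the log2 fold change of 0.91 was 0.36 without H3.

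Of 10 genes grouped here as repressed by flow, 7 had a lower mean (median -0.38), and 4 did both without H3 and without H3 and H4. *Icam1*, a leukocyte adhesion receptor, was at 225, 203, 246 and 239.7 TPM in C1 to C4 and at 183, 144, 19.6 and 194 TPM in H1 to H4. Its groups did not overlap, as was the case for 2.31% of all genes in this direction (log2 fold change -1.17, adjusted p = 0.790 from limma, and -0.40 without H3). *Sele*, which encodes E-selectin, and *Edn1*, which encodes endothelin-1, had means of 2.86 and 171 TPM in control and 1.35 and 81.0 TPM in endFoxf1+/-, and the log2 fold change of *Edn1* went from -1.59 to -0.50 without H3. *Ccl2*, a monocyte chemoattractant, was the only gene of these lists with an unadjusted p under 0.05 (0.0382 from limma), beside 5.59% of all tested genes. It was at 166 TPM in H3, at 10.9 to 27.1 TPM in the other endFoxf1+/- libraries and at 5.28 to 13.3 TPM in control, and its log2 fold change of 1.78 was 0.96 without H3.

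Of 11 further *Klf* genes, 10 had a lower mean (median -0.42), 7 did without H3, 9 did without H3 and H4, and none had groups that did not overlap. *Klf12* was at 18.0, 21.1, 27.3 and 32.3 TPM in C1 to C4 and at 22.8, 12.6, 1.97 and 12.0 TPM in H1 to H4, with H1 inside the control range. *Klf13* and *Klf7* had means of 176 and 137 TPM in control and 124 and 93.4 TPM in endFoxf1+/-, and those of *Klf11* were 37.0 and 28.8 TPM. Without H3, the log2 fold changes went from -0.65 to -0.22 for *Klf13*, from -0.76 to -0.23 for *Klf7* and from -0.53 to -0.04 for *Klf11*.

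The genes with profiles most like each member were found by the root mean square difference of log2(TPM + 1) over the 8 libraries, each profile centered on its own mean. *Heg1* was closest to *Adgrl4* (0.07), and *Klf4* was closest to *Selenop* (0.11), followed by *Scgb3a1* and *Klf12*. Both *Adgrl4* and *Selenop* were among the 3 closest genes without H3 as well. *Klf2* was closest to *Gm5069* (0.19), and *Klf4* ranked 49th among the genes most like it, at 0.32. *Piezo1*, *Krit1*, *Ccm2* and *Pdcd10* were closest to *Ipo9*, *Pkd2*, *Pigk* and *Supt5* (0.05 to 0.06). None of these 5 closest genes was among the 3 closest without H3, when *Klf2* was closest to *Nmnat3* (0.09) and *Klf4* ranked 529th among the genes most like *Klf2*. All profiles share the same 8 libraries.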

How the data were processed

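RNA-seq was performed on CD45-CD31+ cells sorted from orthotopic LLC tumors. The submitters' processing notes name TopHat, Cufflinks, Subread and DESeq2 and the build GRCm38/mm10, without versions. Which tool made the TPM, and with which annotation, is not given in the sources used here. The deposited tables held 1 TPM per gene symbol, which the authors had scaled to a sum of 1000000 in each library, and no counts. No tables of counts were used, so the count test of the study was replaced by limma 3.58.1 (R 4.3.3) with an intensity trend on log2(TPM + 1), for 14964 genes at 1 TPM or more in at least 4 of 8 libraries. Fold changes on this scale understate changes of low genes. Benjamini-Hochberg adjustment covered all tested genes, with a threshold of 0.05. Exact two-sided permutation tests (scipy 1.17.1) used all assignments of libraries (70 for 4 against 4). Relative values subtracted the mean log2(TPM + 1) of 20 endothelial markers from every gene of a library before the fit. No library pair held identical values. Libraries were grouped by the labels, and nothing in the labels beyond mouse numbers describes separate litters or days. The members and all gene lists were chosen with earlier results of these data known. The named list genes were those with the 4 smallest unadjusted p in each list, plus any with groups that did not overlap; *Nos3* was named after its values were seen. Alternatives covered the pseudocount, filter, scaling, variance model, endothelial covariate or reference, and left-out libraries. List counts and the closest genes without H3 and marker sums without *Lyz2* or *Ptprc* were added after the data were seen.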

Additional observations from a re-analysis of the deposited data

Results flagged for a closer look

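In each of 34 groups of 4 libraries, the gap between the most extreme library and its nearest neighbor was divided by the range of the group and compared with Dixon's critical value of 0.829. Chance alone exceeds it in about 1 in 20 groups, and 3 groups exceeded it. *Klf2* in control library C1, at 259.7 TPM, stood below the other control libraries with a ratio of 0.856 on the log2(TPM + 1) scale. *Piezo1* in endFoxf1+/- library H3, at 34.8 TPM, stood below the other 3 with a ratio of 0.899. *Ccm2* relative to the endothelial markers stood above the other endFoxf1+/- libraries in H3, with a ratio of 0.850.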

How the results depend on the processing

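The number of genes past the threshold was 0 on the TPM scale. It was 148 with array weights, which put H3 at 0.0643 and H4 at 0.178, 1 with the endothelial covariate, 2 without H3 and H4, and 0 to 1 with each library left out. On the relative scale it was 1, against 16 with no filter, 9 with a pseudocount of 5, and 0 to 2 with each library left out. *Klf2*, *Klf4*, *Piezo1* and *Pdcd10* kept their direction on the TPM scale in all 18 alternatives, with log2 fold changes from -1.62 to -0.27, -1.58 to -0.55, 0.08 to 0.38 and -0.38 to -0.04. *Heg1* turned to 0.39 with array weights, 0.32 with the covariate and 0.49 without H3 and H4, with -1.37 to 0.087 over left-out libraries. *Krit1* turned to 0.44 with array weights, 0.37 with the covariate, 0.088 after quantile normalization, 0.11 after median-ratio scaling and 0.41 without H3 and H4, with -0.26 to 0.29 over left-out libraries. *Ccm2* ranged from -0.086 to 0.12 over left-out libraries, turning without H1 or H2. On the relative scale, left-out libraries gave -0.47 to 0.18 for *Klf2* and -0.47 to 0.14 for *Klf4*, and *Pdcd10* turned to -0.15 without H3 and H4. The cause of these changes was not tested. Array weights on the relative scale could not be fitted. No paired analysis was possible because the labels give the groups no shared mouse numbers. With TPM alone, depth limits could not be given.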
